A study of Mus musculus with 33 samples.

Results

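Mammary organoids harvested 28 days after Cre delivery are described here in 2 genotypes, Cdh1+/F;Trps1F/F and Cdh1F/F;Trps1+/+, which make up 4 of the 33 samples of the series and 4 of its 12 organoid samples. The members were taken from the labels: the 2 libraries of each genotype at day 28, read from 1 table that also holds day 14 and 1 more genotype, with both genes floxed on both alleles, Cdh1F/F;Trps1F/F. All 12 organoid samples are mouse primary mammary organoids that were transduced with AdCre, an adenovirus that delivers Cre recombinase, and harvested on the labelled day after it. Cre deletes the floxed (F) part of a gene in those cells it reaches, and the labels do not give the share of cells that recombined. Each group carries at least 1 floxed Cdh1 allele, and none of these organoids was left without AdCre. Below, "Trps1-floxed" stands for Cdh1+/F;Trps1F/F and for no other group, and "Trps1 wild-type" stands for Cdh1F/F;Trps1+/+. The genotypes differ at both loci, so effects of floxed Trps1 and of 1 in place of 2 floxed Cdh1 alleles cannot be told apart in this comparison. Nothing in the labels says that the 2 libraries of a group came from separate cultures or mice, so p-values measure the spread between libraries, which may be technical.

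TRPS1 is a zinc finger protein with a GATA-type DNA-binding domain that acts mainly as a transcriptional repressor, recruits deacetylase corepressor complexes, and is expressed strongly in mammary epithelium. In the skeleton it is known for its role in chondrocyte maturation. CDH1 is E-cadherin, the adhesion protein that links luminal epithelial cells at adherens junctions, and its loss is the hallmark of invasive lobular breast carcinoma. The mammary epithelium consists of inner luminal cells, marked by simple keratins such as Krt8, Krt18 and Krt19, and outer basal or myoepithelial cells, marked by Krt5, Krt14 and contractile proteins. A bulk library mixes all cells present, so fewer cells of a type and less RNA per cell cannot be told apart in any value below.

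The Trps1-floxed libraries held 14858175 reads (replicate a) and 24826253 reads (replicate b), and the Trps1 wild-type libraries held 30341900 and 22833101 reads. The same letters name no shared culture, because each pair of columns carries 1 header. Replicates were not copies of each other: the chi-square of their reads over genes, divided by its degrees of freedom, was 8.28 in Trps1-floxed and 18.3 in Trps1 wild-type organoids. Epithelial RNA was present in all 4 libraries, with the epithelial adhesion gene Epcam at 13.3 and 13.44 in Trps1-floxed and 13.32 and 13.38 in Trps1 wild-type libraries on the log2(normalized count + 1) scale used for all levels below. Genes of connective tissue cells were read too, with the fibroblast collagen gene Col3a1 at 17.41 and 17.13 in Trps1-floxed and 12.39 and 12.71 in Trps1 wild-type libraries. Mitochondrial genes took 4.203% and 4.802% of reads in Trps1-floxed and 3.177% and 2.466% in Trps1 wild-type libraries.

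Trps1 (chromosome 15, 50654752 to 50890463, GRCm38) stood at 9.45 and 10.04 in Trps1-floxed and 13.96 and 13.62 in Trps1 wild-type libraries. Both Trps1-floxed libraries lay far below both Trps1 wild-type libraries (log2 difference -4.04, SE 0.182, limma adjusted p = 2.75e-09), as the labels give it. Exons that Cre does not delete can still be read from a floxed allele, so the remaining level does not measure how many cells kept the gene. Cdh1 (chromosome 8, 106603351 to 106670246) stood at 13.04 and 13.16 in Trps1-floxed and 13.58 and 13.37 in Trps1 wild-type libraries and was lower in the Trps1-floxed organoids (log2 difference -0.38, SE 0.0867, limma adjusted p = 0.00264), although these carry 1 floxed allele and the Trps1 wild-type organoids carry 2. Whole-gene reads do not measure recombination of Cdh1.

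Genes with a normalized count + 1 of at least 10 in 2 or more of the 12 organoid libraries were kept. Over all 15860 kept genes, 8453 (53.3%) differed between the genotypes at an adjusted p under 0.05. Of all kept genes, 28.6% rose and 24.7% fell in the Trps1-floxed organoids, which are 4541 and 3912 genes. By 2-fold or more, 2416 rose and 1147 fell, so large differences were more often rises. The median log2 difference was 0.03, and the 4 libraries of the genotypes did not overlap in 77.3% of genes. With shares as high as these, single genes are described by size and lists by how far they stand from the shares over all genes. Many list members named below were picked by the smallest p of this contrast, which favours genes in which the genotypes do not overlap. The balance of directions depended on scaling: rises made up 53.7% of the calls as deposited, 48.5% with libraries set to a common median, 41.8% after quantile normalization and 42.5% with limma-voom on the recovered reads. In a principal component analysis of the 12 organoid libraries, the first component held 57.5% of the variance and placed the Trps1-floxed libraries of both days at 77.3 to 105, the Trps1 wild-type libraries of day 28 at -38.9 and -19.3 and the Cdh1F/F;Trps1F/F libraries of day 28 at -93.7 and -97.7.

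**Figure D1:**
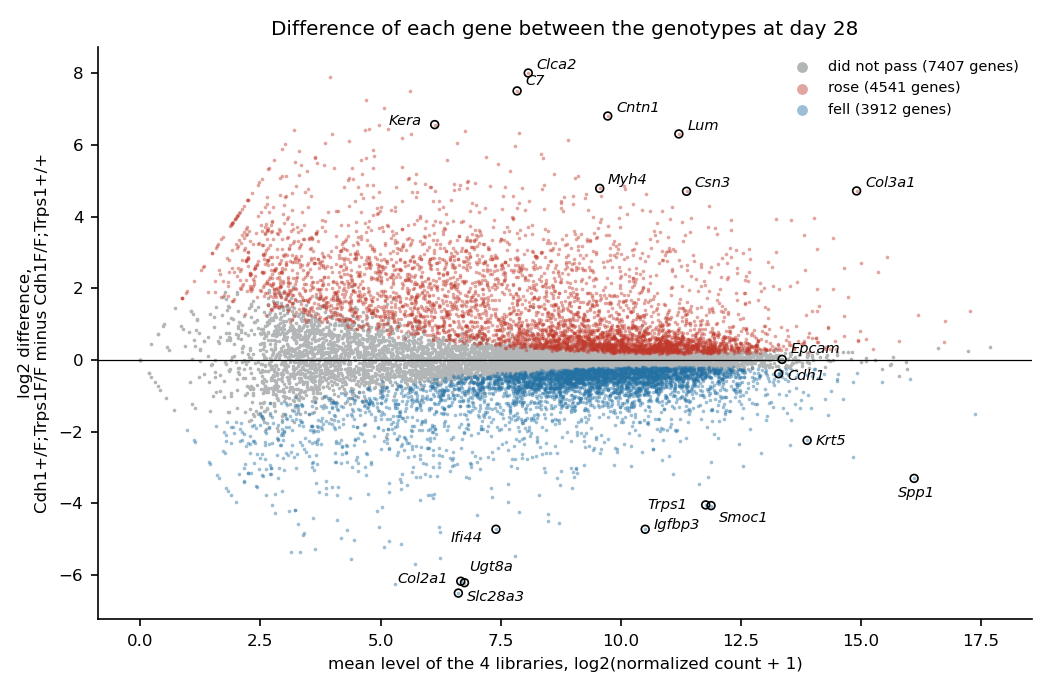
Each point is 1 of 15860 kept genes at day 28, with its mean level over the 4 libraries on the x axis in log2(normalized count + 1) and the log2 difference, Cdh1+/F;Trps1F/F minus Cdh1F/F;Trps1+/+, on the y axis. Red points rose and blue points fell at an adjusted p under 0.05, and circles mark named genes. Epcam lies near 0, Clca2 at the top and Slc28a3 at the bottom.

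Of the 9 GATA factors and partners listed, 8 were kept, 4 rose and 2 fell, against 28.6% and 24.7% of all kept genes. Gata3, the luminal GATA factor, fell to 9.93 and 10.16 in Trps1-floxed organoids, against 11.29 and 11.11 in Trps1 wild-type organoids (log2 difference -1.15, SE 0.107, limma adjusted p = 1.46e-06). Gata2, a factor of blood, endothelial and some stromal cells, stood at 8.87 and 8.72 in Trps1-floxed and 4.62 and 5.68 in Trps1 wild-type libraries (log2 difference 3.64, SE 0.294, limma adjusted p = 4.28e-07). Gata6, known from endoderm and mesoderm, stood at 7.79 and 7.89 in Trps1-floxed and 4.88 and 5.25 in Trps1 wild-type libraries (log2 difference 2.78), and Zfpm2, which encodes the GATA partner FOG2, at 8.03 and 8.07 in Trps1-floxed and 4.22 and 4.87 in Trps1 wild-type libraries (log2 difference 3.51). Gata1, a blood cell factor, stood at 4.81 and 4.54 in Trps1-floxed and 1.6 and 1.46 in Trps1 wild-type libraries (log2 difference 3.14). The groups overlapped for none of these 5 genes, Gata3 lying lower and the others higher in the Trps1-floxed libraries. The same lack of overlap held for 77.3% of all kept genes.

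Because TRPS1 binds GATA letters in DNA, promoter windows of the genes with the largest differences were searched for AGATAA and TGATAA and their reverse complements TTATCT and TTATCA. The windows run from 250 bases before to 50 bases after the start of transcription and come from RefSeq (GRCm38.p6). Of the 15 genes that rose most, 9 had a window and 1 held such letters, and of the 15 that fell most, 9 had a window and 1 held them. The 2 windows with a match are printed first, then those of the highest-ranked gene in each direction among those without one. Capitals mark the match.
C7 (chr15:5063724-5064023, - strand): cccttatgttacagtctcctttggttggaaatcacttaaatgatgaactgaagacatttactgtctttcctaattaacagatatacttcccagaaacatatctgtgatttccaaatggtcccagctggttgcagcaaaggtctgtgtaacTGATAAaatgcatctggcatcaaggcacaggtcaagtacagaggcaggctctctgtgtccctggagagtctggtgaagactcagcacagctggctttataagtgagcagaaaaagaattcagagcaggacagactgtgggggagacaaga
Tmem213 (chr6:38109103-38109402, + strand): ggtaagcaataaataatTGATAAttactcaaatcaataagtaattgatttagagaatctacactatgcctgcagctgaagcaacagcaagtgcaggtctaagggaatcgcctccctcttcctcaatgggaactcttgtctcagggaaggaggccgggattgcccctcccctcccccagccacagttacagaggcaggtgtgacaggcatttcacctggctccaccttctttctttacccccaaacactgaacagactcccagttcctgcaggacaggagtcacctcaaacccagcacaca
Col6a5 (chr9:105960594-105960893, - strand): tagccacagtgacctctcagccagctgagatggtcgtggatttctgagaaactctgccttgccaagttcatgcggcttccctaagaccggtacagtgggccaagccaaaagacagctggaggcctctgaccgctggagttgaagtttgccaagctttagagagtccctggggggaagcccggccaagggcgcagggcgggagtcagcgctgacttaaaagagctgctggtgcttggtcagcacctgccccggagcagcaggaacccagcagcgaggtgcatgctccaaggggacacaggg
Slc28a3 (chr13:58610828-58611127, - strand): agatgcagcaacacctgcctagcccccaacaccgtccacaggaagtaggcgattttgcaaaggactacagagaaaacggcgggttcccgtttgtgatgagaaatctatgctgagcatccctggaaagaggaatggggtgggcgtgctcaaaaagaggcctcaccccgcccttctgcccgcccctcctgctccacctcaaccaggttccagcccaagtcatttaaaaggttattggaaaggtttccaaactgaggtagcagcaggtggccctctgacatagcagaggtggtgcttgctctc
The match lies before the start of transcription in both C7, which rose, and Tmem213, which fell. Over all 32851 windows of the table, 18.6% held at least 1 match, and over the windows of kept genes 10.7% did. Among kept genes that rose by 2-fold or more, 15.6% of 2178 windows held a match, against 10.1% of 1055 windows of genes that fell by 2-fold or more and 10.7% of 6849 windows of genes that did not pass. A match is only a run of letters, and binding of TRPS1 to these windows was not measured here.

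Among the 15 genes that rose most, Clca2 stood first, at 12.06 and 12.1 in Trps1-floxed and 3.79 and 4.35 in Trps1 wild-type libraries (log2 difference 8.01, SE 0.216, limma adjusted p = 1.14e-10), and its relative Clca1 stood at 7.76 and 8.01 in Trps1-floxed and 0.74 and 2.18 in Trps1 wild-type libraries (log2 difference 6.43, SE 0.354, limma adjusted p = 1.47e-08). In reads, Clca2 had 2843 and 4946 in Trps1-floxed and 19 and 22 in Trps1 wild-type libraries. Clca genes encode secreted proteins that regulate calcium-activated chloride channels. The table lists Clca1 to Clca6, symbols that RefSeq holds partly as older names of other members of this cluster of closely related genes (Clca2 as an older name of Clca3a2, Clca5 of the present Clca2), so reads may be split between copies and no coordinates are given. Clca5, named here after its values were seen, went the other way, with 5.21 and 5.67 in Trps1-floxed and 7.9 and 8.71 in Trps1 wild-type libraries (log2 difference -2.87).

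C7 (chromosome 15, 4988762 to 5063740), a terminal complement component, stood at 11.73 and 11.46 in Trps1-floxed and 4.11 and 4.07 in Trps1 wild-type libraries (log2 difference 7.51, SE 0.353, limma adjusted p = 3.65e-09). Cntn1 (chromosome 15, 92051165 to 92341967), the neural adhesion protein contactin 1, stood at 13.23 and 13.04 in Trps1-floxed and 6.09 and 6.56 in Trps1 wild-type libraries (log2 difference 6.81, SE 0.207, limma adjusted p = 2.3e-10). Lum (chromosome 10, 97565128 to 97572703), the collagen-binding proteoglycan lumican, stood at 14.5 and 14.23 in Trps1-floxed and 7.77 and 8.34 in Trps1 wild-type libraries (log2 difference 6.31, SE 0.206, limma adjusted p = 2.71e-10). For these genes the lowest Trps1-floxed library exceeded the highest Trps1 wild-type library by over 5 log2 units. Kera, a corneal relative of lumican that lies beside it on chromosome 10, rose by 6.57, the collagen VI chain gene Col6a5 by 7.5 and the elastic fibre gene Mfap4 by 6.35. The remaining genes were Sdr16c6 (6.39), Fgl2 (6.14), Clec3b (6.06), the vessel growth factor gene Angpt2 (5.97), Srpx (5.76), Ndnf (5.66), the steroid-metabolizing Akr1c14 (5.63) and the antimicrobial lectin gene Reg3g (5.59). The largest limma adjusted p among the 15 was 1.13e-07, for Reg3g.

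Among the 15 genes that fell most, Slc28a3 (chromosome 13, 58545399 to 58610877), a concentrative nucleoside transporter, stood at 3.09 and 3.65 in Trps1-floxed and 10.17 and 9.57 in Trps1 wild-type libraries (log2 difference -6.5, SE 0.384, limma adjusted p = 2.65e-08). Col2a1 (chromosome 15, 97975602 to 98004695), the collagen II gene of cartilage, stood at 3.86 and 3.43 in Trps1-floxed and 10.08 and 9.62 in Trps1 wild-type libraries (log2 difference -6.21, SE 0.276, limma adjusted p = 2.57e-09). Ugt8a (chromosome 3, 125865271 to 125938619), which makes galactosylceramide, stood at 3.32 and 3.84 in Trps1-floxed and 9.96 and 9.56 in Trps1 wild-type libraries (log2 difference -6.17, SE 0.209, limma adjusted p = 3.3e-10). All 3 lay under 4 in both Trps1-floxed libraries and over 9 in both Trps1 wild-type libraries. Igfbp3, which binds insulin-like growth factors, fell by 4.72 on the log2 scale, to 8.19 and 8.11 in Trps1-floxed libraries, against 13.01 and 12.73 in Trps1 wild-type libraries. Smoc1, a secreted calcium-binding matrix protein, stood at 9.81 and 9.89 in Trps1-floxed and 14.05 and 13.77 in Trps1 wild-type libraries. The mast cell protease Mcpt2 (-4.31), the retinoic acid carrier Crabp2 (-4.3), alkaline phosphatase Alpl (-4.25), Scube1 (-4.54), Tmem213 (-5.46) and Hhipl2 (-3.97) completed the set together with Trps1, Ifi44 and the cartilage genes below.

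**Figure D2:**
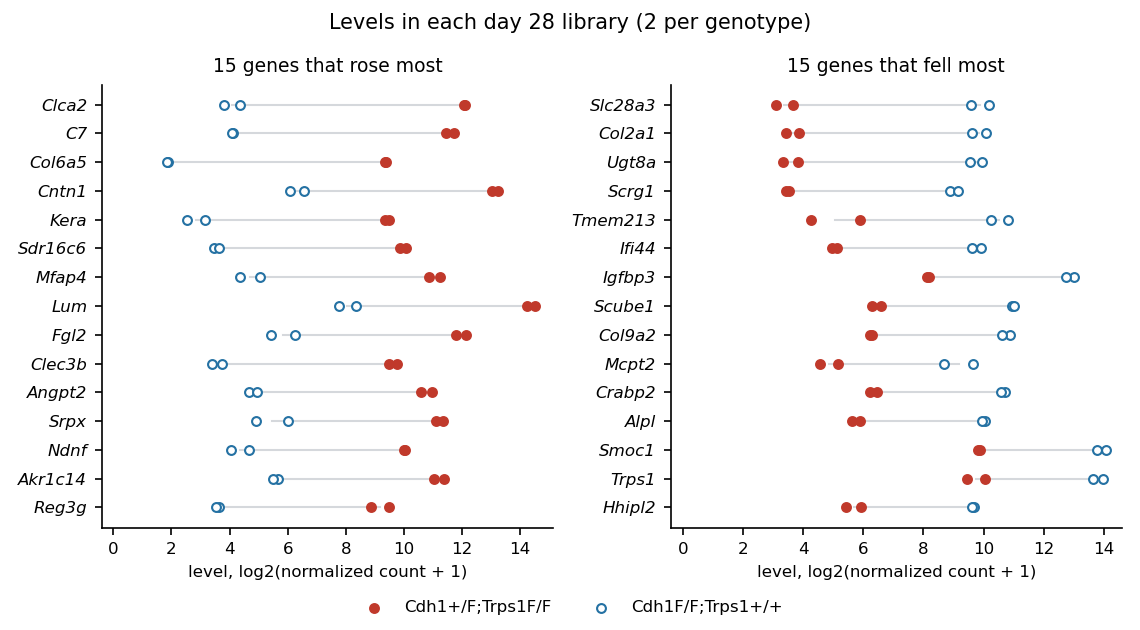
The level in log2(normalized count + 1) is on the x axis and each row is 1 gene, with the 15 that rose most in the left panel and the 15 that fell most in the right panel. Filled red points are the 2 Cdh1+/F;Trps1F/F libraries, open blue points the 2 Cdh1F/F;Trps1+/+ libraries, and a line joins the group means. In no row do the genotypes overlap.

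Cartilage genes, a set picked after their values were seen, went in both directions. Besides Col2a1, the genes for collagen IX chains fell: Col9a1 stood at 5.15 and 5.16 in Trps1-floxed and 8.77 and 8.05 in Trps1 wild-type libraries, Col9a2 at 6.22 and 6.28 in Trps1-floxed and 10.86 and 10.61 in Trps1 wild-type libraries, and Col9a3 at 10.59 and 10.54 in Trps1-floxed and 11.86 and 11.88 in Trps1 wild-type libraries. The stimulator of chondrogenesis Scrg1 (-5.53), the cartilage matrix genes Matn4 (-2.47) and Chad (-2.7), and Sox9, the chondrocyte and luminal progenitor factor (-0.83), fell too. Acan, the main cartilage proteoglycan, had 1 read in the Trps1-floxed and 34 reads in the Trps1 wild-type libraries together, 23.3-fold higher in Trps1 wild-type organoids with an exact 95% counting interval of 3.9 to 946. Other genes known from cartilage were higher in the Trps1-floxed organoids: Mgp, an inhibitor of calcification, at 13.86 and 13.67 in Trps1-floxed and 10.21 and 10.27 in Trps1 wild-type libraries, the lubricant gene Prg4 at 12.59 and 12.8 in Trps1-floxed and 8.95 and 9.58 in Trps1 wild-type libraries, and Comp at 6.58 and 6.04 in Trps1-floxed and 3.56 and 4.28 in Trps1 wild-type libraries. Runx2, a bone factor, stood at 9.83 and 9.71 in Trps1-floxed and 9.74 and 9.51 in Trps1 wild-type libraries and did not pass (limma adjusted p = 0.263).

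Lists of extracellular matrix genes were set against the 28.6% of all kept genes that rose and the 24.7% that fell. Fibrillar and associated collagens gave 18 kept members, of which 14 rose and 2 fell (median log2 difference 2.75, against 0.03 over all kept genes). Col1a1 stood at 15.72 and 15.29 in Trps1-floxed and 11.33 and 11.83 in Trps1 wild-type libraries (log2 difference 3.92, SE 0.257, limma adjusted p = 6.97e-08), and Col3a1 differed by 4.72 (SE 0.182). Col15a1 (3.96), Col6a3 (2.75) and Col5a2 (2.5) rose too. Enzymes and proteins that crosslink collagen and build elastic fibres gave 22 kept members, of which 18 rose and 4 fell (median log2 difference 1.4). Lox, the first lysyl oxidase, stood at 14.1 and 13.75 in Trps1-floxed and 10.82 and 10.9 in Trps1 wild-type libraries (log2 difference 3.07), Efemp1 rose by 4.86, and Loxl4 fell by 1.94 on the log2 scale. Every fibrillar and elastic gene with a value in this paragraph kept the genotypes apart, Loxl4 with lower and the others with higher Trps1-floxed libraries. These genes were largely picked by their small p, and 77.3% of all kept genes did not overlap between the genotypes.

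Proteoglycans and matricellular proteins gave 17 kept members, of which 14 rose and 2 fell (median log2 difference 2.53). Decorin, a collagen-binding proteoglycan encoded by Dcn, stood at 15.91 and 15.94 in Trps1-floxed and 12.84 and 13.87 in Trps1 wild-type libraries, where the Trps1 wild-type replicates lay about 1 log2 unit apart. Gpc3 rose by 5.27, Bgn by 2.47 and Thbs2 by 3.11, while Postn, at 16.82 and 16.72 in Trps1-floxed and 16.49 and 16.35 in Trps1 wild-type libraries, did not pass. The exceptions were Sdc1, an epithelial heparan sulfate proteoglycan (-0.9), and Spp1. Spp1, the secreted phosphoprotein osteopontin, stood at 14.33 and 14.59 in Trps1-floxed and 17.96 and 17.55 in Trps1 wild-type libraries (log2 difference -3.3, SE 0.156, limma adjusted p = 3.76e-09). The summed normalized count of the list overlapped between the genotypes (396500 to 417000 in Trps1-floxed and 347700 to 404400 in Trps1 wild-type libraries), although 14 of its members rose.

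Matrix proteases and their inhibitors gave 23 kept members, of which 20 rose and 2 fell (median log2 difference 2.01). The gelatinase gene Mmp2 stood at 16.3 and 15.97 in Trps1-floxed and 12.3 and 13.12 in Trps1 wild-type libraries, the stromelysin gene Mmp3 at 15.67 and 15.46 in Trps1-floxed and 11.49 and 12.64 in Trps1 wild-type libraries, and the collagenase gene Mmp13 at 13.55 and 13.53 in Trps1-floxed and 10.81 and 10.58 in Trps1 wild-type libraries. All 3 were higher in each Trps1-floxed library than in each Trps1 wild-type library, and 77.3% of all kept genes did not overlap. Adamts2 (4.27), which trims procollagen, Adamts5 (3.58), which cleaves proteoglycans, and the plasminogen activator gene Plau (3.05) rose too, and the inhibitor gene Timp3 fell by 1.47 on the log2 scale. Basement membrane genes went in both directions. Of 21 kept members, 12 rose and 7 fell, with genes for chains of the epithelial laminin that anchors hemidesmosomes lower (Lamb3 -3.27, Lama3 -1.87) and Lama2 (4.2), Lama4 (2.07), Lamb1 (1.99), Lamc1 (1.86) and Col4a1 (1.48) higher.

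Markers of other cell types differed too, and their part in the other results was not tested. The fibroblast list shares many members with the matrix lists above, among them Col1a1, Col3a1, Col6a3, Dcn, Lum, Postn and Mfap5. Its count is therefore not separate from theirs. Fibroblast markers gave 20 kept members, of which 19 rose and 0 fell (median log2 difference 2.77), with a summed normalized count of 536900 to 627800 in Trps1-floxed and 133100 to 149600 in Trps1 wild-type libraries. Pdgfra stood at 14.67 and 14.45 in Trps1-floxed and 12.44 and 12.55 in Trps1 wild-type libraries and Pdgfrb at 13.17 and 12.86 in Trps1-floxed and 9.84 and 10.85 in Trps1 wild-type libraries. Thy1 stood at 11.67 and 11.55 in Trps1-floxed and 7.55 and 8.2 in Trps1 wild-type libraries. The Trps1 wild-type library b had the higher level of the pair for each of these 3 genes, and it still lay below both Trps1-floxed libraries. Skeletal muscle markers rose in 23 of 23 kept members (median log2 difference 2.93), with a summed count of 68290 to 89130 in Trps1-floxed and 8677 to 13050 in Trps1 wild-type libraries. The fast myosin gene Myh4 stood at 12.1 and 11.82 in Trps1-floxed and 6.75 and 7.58 in Trps1 wild-type libraries, the fast troponin gene Tnnt3 at 13.33 and 13.09 in Trps1-floxed and 9.05 and 9.66 in Trps1 wild-type libraries and the muscle determination factor Myod1 at 8.17 and 7.51 in Trps1-floxed and 5.95 and 6.62 in Trps1 wild-type libraries. Muscle genes were read in both genotypes and were higher in each Trps1-floxed library. No listed fibroblast, muscle, adipocyte, pericyte, endothelial or macrophage marker was at 0 in all 4 libraries. Fibroblast, skeletal muscle and adipocyte markers together, 62 genes, took 3.51% and 3.03% of all normalized counts in Trps1-floxed libraries and 0.744% and 0.889% in Trps1 wild-type libraries.

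Adipocyte markers gave 16 kept members, of which 13 rose and 1 fell (median log2 difference 1.74), with a summed count of 62100 to 64470 in Trps1-floxed and 10590 to 15900 in Trps1 wild-type libraries. Adipoq, which encodes adiponectin, stood at 8.42 and 7.76 in Trps1-floxed and 2.68 and 3.42 in Trps1 wild-type libraries (log2 difference 5.04, SE 0.593, limma adjusted p = 1.32e-05), and lipoprotein lipase Lpl at 15.65 and 15.61 in Trps1-floxed and 12.1 and 12.96 in Trps1 wild-type libraries. Retn had 0 reads in both Trps1 wild-type libraries and was at least 36.5-fold higher in the Trps1-floxed ones, measured against 3 counts over the group. Pericyte and smooth muscle markers gave 12 kept members, of which 7 rose and 3 fell (median log2 difference 1.82), with Notch3 (-1.6), Cspg4 (-1.47) and Mcam (-1.24) falling while Abcc9 (2.86) rose. The list shares Acta2, Myh11 and Cnn1 with the basal and myoepithelial list, Des with the skeletal muscle list and Pdgfrb with the fibroblast list. Its count and median are therefore not separate from theirs. Endothelial markers gave 18 kept members, of which 9 rose and 2 fell (median log2 difference 0.96), and the defining markers went in both directions: Pecam1 stood at 5.82 and 5.96 in Trps1-floxed and 6.63 and 6.55 in Trps1 wild-type libraries, Cdh5 at 5.66 and 5.29 in Trps1-floxed and 4.05 and 4.82 in Trps1 wild-type libraries (not past the test without Trps1-floxed replicate a or Trps1 wild-type replicate a) and Plvap at 7.62 and 7.55 in Trps1-floxed and 4.62 and 5.07 in Trps1 wild-type libraries. Their summed count was 2323 to 2490 in Trps1-floxed and 1536 to 1694 in Trps1 wild-type libraries, and the list's median was 0.62 without Trps1 wild-type replicate a.

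Macrophage and myeloid markers gave 19 kept members, of which 10 rose and 2 fell (median log2 difference 0.59), and their summed count did not separate the genotypes (8153 to 9523 in Trps1-floxed and 8445 to 9205 in Trps1 wild-type libraries). The leukocyte gene Ptprc stood at 7.72 and 7.9 in Trps1-floxed and 5.53 and 5.46 in Trps1 wild-type libraries (log2 difference 2.32) and the receptor gene Csf1r at 6.51 and 6.87 in Trps1-floxed and 4.97 and 5.43 in Trps1 wild-type libraries (log2 difference 1.48), while Cd14, also an epithelial gene, fell by 0.96 on the log2 scale. Of 14 lymphocyte markers, 13 had values and only 3 were kept, of which 1 rose and 1 fell. Trbc2 had 3 reads in the Trps1-floxed and 45 reads in the Trps1 wild-type libraries together. The summed count of the 13 was 54.07 to 56.05 in Trps1-floxed and 38.72 to 39.88 in Trps1 wild-type libraries. Cd8a was at 0 in all 4 libraries. Schwann and neural markers gave 10 kept members, of which 3 rose and 4 fell (median log2 difference -0.16, -0.02 to -0.33 with 1 of the 4 libraries left out), led by Ngfr, the low-affinity nerve growth factor receptor gene that basal mammary and stromal cells also express, at 10.06 and 9.64 in Trps1-floxed and 5.03 and 5.49 in Trps1 wild-type libraries. Xist, the only kept gene of the sex-linked list, stood at 14.57 and 14.69 in Trps1-floxed and 14.53 and 14.25 in Trps1 wild-type libraries and did not pass (limma adjusted p = 0.0796), though it did at 0.38 without Trps1 wild-type replicate a.

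Mesenchymal transition genes gave 22 kept members, of which 16 rose and 1 fell (median log2 difference 1.48). Vim, the intermediate filament gene of mesenchymal cells, stood at 13.99 and 13.96 in Trps1-floxed and 11.66 and 12.01 in Trps1 wild-type libraries, Zeb1 at 10.43 and 10.35 in Trps1-floxed and 7.19 and 8.45 in Trps1 wild-type libraries and Zeb2 at 11.79 and 11.87 in Trps1-floxed and 8.54 and 9.44 in Trps1 wild-type libraries. The groups did not overlap for any of the 3, nor for 77.3% of all kept genes. The transition factor Snai2, which basal mammary cells also express, stood at 9.5 and 9.55 in Trps1-floxed and 9.39 and 9.0 in Trps1 wild-type libraries and did not pass, though it did without Trps1 wild-type replicate a (0.53). Snai1 stood at 8.71 and 8.85 in Trps1-floxed and 7.85 and 8.63 in Trps1 wild-type libraries and did not pass, though it did without Trps1 wild-type replicate b (0.94). Cdh2, the neural cadherin gene, differed by 0.27, a call lost under 9 of 12 alternatives. Among cadherins and catenins, 8 of 13 rose and 3 fell. Cdh11, the cadherin of fibroblasts, stood at 11.66 and 11.29 in Trps1-floxed and 8.4 and 8.66 in Trps1 wild-type libraries (log2 difference 2.95, SE 0.149, limma adjusted p = 6.86e-09), and Cdh13 rose by 3.94. The P-cadherin gene Cdh3 of basal cells (-1.31) and the plakoglobin gene Jup (-1.49) fell, and Ctnnb1, the beta-catenin gene, rose by 0.66.

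Luminal epithelial markers fell in 18 and rose in 4 of 32 kept members (median log2 difference -0.68), with a summed count of 79440 to 87060 in Trps1-floxed and 114900 to 121300 in Trps1 wild-type libraries. The luminal keratin genes fell together. Krt8 stood at 12.4 and 12.61 in Trps1-floxed and 13.84 and 13.79 in Trps1 wild-type libraries (log2 difference -1.31, SE 0.0989, limma adjusted p = 2.36e-07), Krt19 at 10.85 and 10.95 in Trps1-floxed and 13.12 and 12.83 in Trps1 wild-type libraries (log2 difference -2.07, SE 0.176, limma adjusted p = 6.8e-07) and Krt7 at 8.75 and 8.54 in Trps1-floxed and 11.32 and 11.08 in Trps1 wild-type libraries (log2 difference -2.55, SE 0.126, limma adjusted p = 5.35e-09). Krt18 fell by 0.94 on the log2 scale. Other defining luminal genes did not pass: Epcam, the progenitor factor Elf5 at 12.07 and 12.24 in Trps1-floxed and 12.53 and 12.14 in Trps1 wild-type libraries, the progenitor receptor Kit at 11.93 and 11.91 in Trps1-floxed and 12.14 and 11.84 in Trps1 wild-type libraries and the alveolar progenitor gene Aldh1a3 at 11.7 and 11.67 in Trps1-floxed and 11.77 and 11.64 in Trps1 wild-type libraries. The genotypes overlapped in these 4 genes, and Elf5 passed at -0.37 without Trps1 wild-type replicate b. Cldn4, a claudin of tight junctions, rose by 1.41. The 4 keratin genes thus fell while the log2 differences of Epcam, Elf5, Kit and Aldh1a3 were 0.02, -0.18, -0.07 and -0.02. Hormone-sensing luminal genes gave 12 kept members, of which 3 rose and 4 fell (median log2 difference -0.08, -0.04 to -0.14 with 1 of the 4 libraries left out). The called share was close to the 53.3% over all kept genes. Esr1, Pgr, Foxa1, Prlr, Areg, Cited1, Ly6a, Prom1 and Tbx3 are also counted in the luminal list above. Foxa1 (-2.44) and Wnt4 (-2.27) were lower, and Areg (1.05) and Ly6a (1.13) higher. The estrogen and progesterone receptor genes Esr1 (-0.05) and Pgr (0.15) did not pass.

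Milk and secretory genes went both ways, with 7 of 20 kept members that rose and 8 that fell (median log2 difference -0.07, -0.01 without Trps1 wild-type replicate a and -0.21 without Trps1 wild-type replicate b). Csn3, the kappa casein gene, stood at 13.66 and 13.79 in Trps1-floxed and 9.3 and 8.73 in Trps1 wild-type libraries (log2 difference 4.71, SE 0.153, limma adjusted p = 2.71e-10), the beta casein gene Csn2 at 4.73 and 5.23 in Trps1-floxed and 2.96 and 3.29 in Trps1 wild-type libraries, and Xdh, needed for milk fat secretion, at 12.83 and 12.87 in Trps1-floxed and 11.28 and 11.23 in Trps1 wild-type libraries. These were higher in both Trps1-floxed libraries, whereas Csn1s1, an alpha casein gene, fell by 0.43 on the log2 scale, with -0.14 without Trps1 wild-type replicate a, where it did not pass. Lalba, which encodes alpha lactalbumin, stood at 4.96 and 5.08 in Trps1-floxed and 8.27 and 7.68 in Trps1 wild-type libraries (log2 difference -2.95). Wap, the whey acidic protein gene, had 0 reads in both Trps1-floxed libraries and 14 and 5 reads in Trps1 wild-type libraries. Stat5a, the factor that drives milk genes, fell by 0.55 on the log2 scale.

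Basal and myoepithelial markers went in both directions, with 8 risen and 15 fallen of 26 kept members (median log2 difference -0.85). Krt5 stood at 12.86 and 12.66 in Trps1-floxed and 15.02 and 14.98 in Trps1 wild-type libraries (log2 difference -2.24, SE 0.136, limma adjusted p = 3.39e-08) and Krt14 at 13.56 and 13.53 in Trps1-floxed and 15.19 and 14.99 in Trps1 wild-type libraries (log2 difference -1.54, SE 0.138, limma adjusted p = 1.12e-06). Trp63, the basal identity factor, stood at 9.92 and 9.9 in Trps1-floxed and 12.01 and 11.67 in Trps1 wild-type libraries (log2 difference -1.93, SE 0.123, limma adjusted p = 5.25e-08). Both keratins and their regulator were lower in the Trps1-floxed organoids. The hemidesmosome and anchoring genes Col17a1 (-2.59), Col7a1 (-2.95) and Lamb3 fell with them, as did the stem cell receptor gene Lgr5 (-2.48). The contractile genes of the list that rose most were Acta2, smooth muscle actin, at 13.07 and 12.89 in Trps1-floxed and 10.38 and 10.38 in Trps1 wild-type libraries, Myh11, smooth muscle myosin, at 10.33 and 10.24 in Trps1-floxed and 6.62 and 6.72 in Trps1 wild-type libraries, Mylk (2.59) and Cnn1 (2.0). The gamma actin gene Actg2, named here after its values were seen, did not pass (0.07, limma adjusted p = 0.92). Pericytes, smooth muscle cells and myofibroblasts also express Acta2, Myh11, Mylk and Cnn1, and the fibroblast markers above were higher in the same libraries while Notch3, Cspg4 and Mcam were lower. Their part in the rise was not tested.

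**Figure D3:**
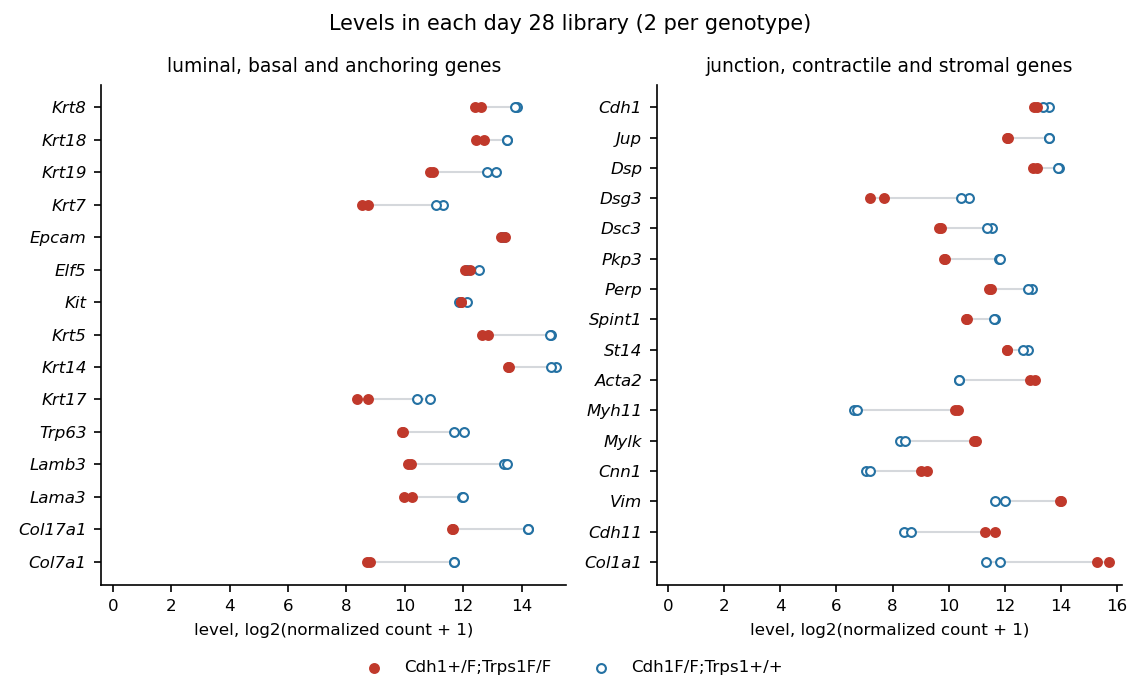
The level in log2(normalized count + 1) is on the x axis and each row is 1 gene, with luminal, basal and anchoring genes in the left panel and junction, contractile and stromal genes in the right panel. Filled red points are the 2 Cdh1+/F;Trps1F/F libraries and open blue points the 2 Cdh1F/F;Trps1+/+ libraries. Keratin, anchoring and desmosome genes are lower, contractile and stromal genes higher, and Epcam, Elf5 and Kit overlap between the genotypes.

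Genes of desmosomes, the junctions that tie keratin filaments between cells, fell in 9 of 11 members (median log2 difference -0.85), against 24.7% of all kept genes that fell. Dsg3 stood at 7.21 and 7.68 in Trps1-floxed and 10.73 and 10.42 in Trps1 wild-type libraries (log2 difference -3.13, SE 0.189, limma adjusted p = 3.19e-08), Pkp3 at 9.85 and 9.82 in Trps1-floxed and 11.78 and 11.84 in Trps1 wild-type libraries and Dsc3 at 9.64 and 9.74 in Trps1-floxed and 11.56 and 11.37 in Trps1 wild-type libraries. Dsp, the desmoplakin gene, stood at 13.02 and 13.13 in Trps1-floxed and 13.94 and 13.9 in Trps1 wild-type libraries. The genotypes did not overlap in any of these 4 genes, nor in 77.3% of all kept genes. Tight junction genes fell in 14 of 19 kept members and rose in 2 (median log2 difference -0.43), with Ocln at 9.68 and 9.61 in Trps1-floxed and 9.66 and 9.49 in Trps1 wild-type libraries not past the test. Membrane serine proteases and their inhibitors, which act on epithelial surfaces, fell in 13 of 16 and rose in 0 (median log2 difference -1.19), with matriptase gene St14 (-0.67), its inhibitor genes Spint1 (-1.0) and Spint2 (-1.14) and the kallikrein gene Klk10 (-3.26) among them. Squamous genes gave 17 kept members, of which 2 rose and 10 fell (median log2 difference -1.42, -0.94 without Trps1-floxed replicate a and -0.93 without Trps1 wild-type replicate b), with Dmkn at 7.07 and 6.91 in Trps1-floxed and 10.49 and 10.48 in Trps1 wild-type libraries and Krt6a at 7.31 and 6.79 in Trps1-floxed and 9.14 and 9.21 in Trps1 wild-type libraries. Ion channels and transporters of secretory epithelium gave 15 kept members, of which 5 rose and 5 fell (median log2 difference 0.11, 0.06 without Trps1-floxed replicate a and 0.06 without Trps1 wild-type replicate b, and -0.41 after quantile normalization). The water channel gene Aqp5 stood at 8.94 and 9.08 in Trps1-floxed and 11.31 and 11.52 in Trps1 wild-type libraries and the bicarbonate transporter gene Slc4a4 at 10.56 and 10.63 in Trps1-floxed and 9.08 and 8.96 in Trps1 wild-type libraries.

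Interferon response genes fell in 32 of 35 kept members and rose in 1 (median log2 difference -1.21), with a summed count of 13640 to 13820 in Trps1-floxed and 29800 to 31140 in Trps1 wild-type libraries. Ifi44 stood at 4.96 and 5.12 in Trps1-floxed and 9.92 and 9.61 in Trps1 wild-type libraries (log2 difference -4.72, SE 0.181, limma adjusted p = 9.5e-10). Irf7, the factor that amplifies the interferon response, stood at 7.36 and 6.67 in Trps1-floxed and 10.33 and 10.31 in Trps1 wild-type libraries (log2 difference -3.3, SE 0.193, limma adjusted p = 2.51e-08). The antiviral genes Oas2 (-3.05), Rtp4 (-3.02), Isg15 (-2.35) and Ifit1 (-1.99) fell too. The signal transducer gene Stat2 was lower by less (-0.75). Ifit3 was the single riser, at 6.67 and 6.57 in Trps1-floxed and 4.58 and 5.14 in Trps1 wild-type libraries. Class I antigen presentation gave 20 kept members, of which 2 rose and 7 fell (median log2 difference -0.26). The immunoproteasome gene Psmb8 (-1.11) and the peptide transporter genes Tap1 (-0.74) and Tap2 (-0.86) fell, H2-K1 (0.15) and H2-D1 (0.00, and -0.37 after quantile normalization, where it passed) did not pass, and B2m rose by 1.23.

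Complement and acute phase genes gave 21 kept members, of which 14 rose and 3 fell (median log2 difference 1.97). Among the complement genes, C3 stood at 15.15 and 15.01 in Trps1-floxed and 12.96 and 13.26 in Trps1 wild-type libraries and C1ra at 12.71 and 12.62 in Trps1-floxed and 8.61 and 9.08 in Trps1 wild-type libraries. The acute phase gene Saa3 stood at 17.11 and 16.88 in Trps1-floxed and 13.42 and 14.8 in Trps1 wild-type libraries, with Trps1 wild-type libraries over 1 log2 unit apart. The chaperone gene Clu stood at 16.39 and 16.32 in Trps1-floxed and 13.7 and 13.59 in Trps1 wild-type libraries. All 4 were higher in each Trps1-floxed library, and 77.3% of all kept genes did not overlap between the genotypes. The haptoglobin gene Hp (-2.71) and Lcn2, an iron-scavenging lipocalin (-1.34), fell. Cytokines and chemokines of the NF-kB response gave 25 kept members, of which 10 rose and 5 fell (median log2 difference 0.17, 0.04 without Trps1-floxed replicate b and 0.1 without Trps1 wild-type replicate a). Over all kept genes, 28.6% rose and 24.7% fell. Vcam1 (4.16), Il33 (2.55), Cxcl12 (2.25), which fibroblasts make, and Il6 (2.12) rose, Ptgs2 (-2.56) and Tnf (-1.29) fell, and the feedback inhibitor genes Nfkbia (-0.22) and Tnfaip3 (0.25) did not pass. With 1 library left out, Nfkbia passed at -0.46 without Trps1-floxed replicate b, and Tnfaip3 at 0.4 without Trps1-floxed replicate a and at 0.37 without Trps1 wild-type replicate b.

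**Figure D4:**
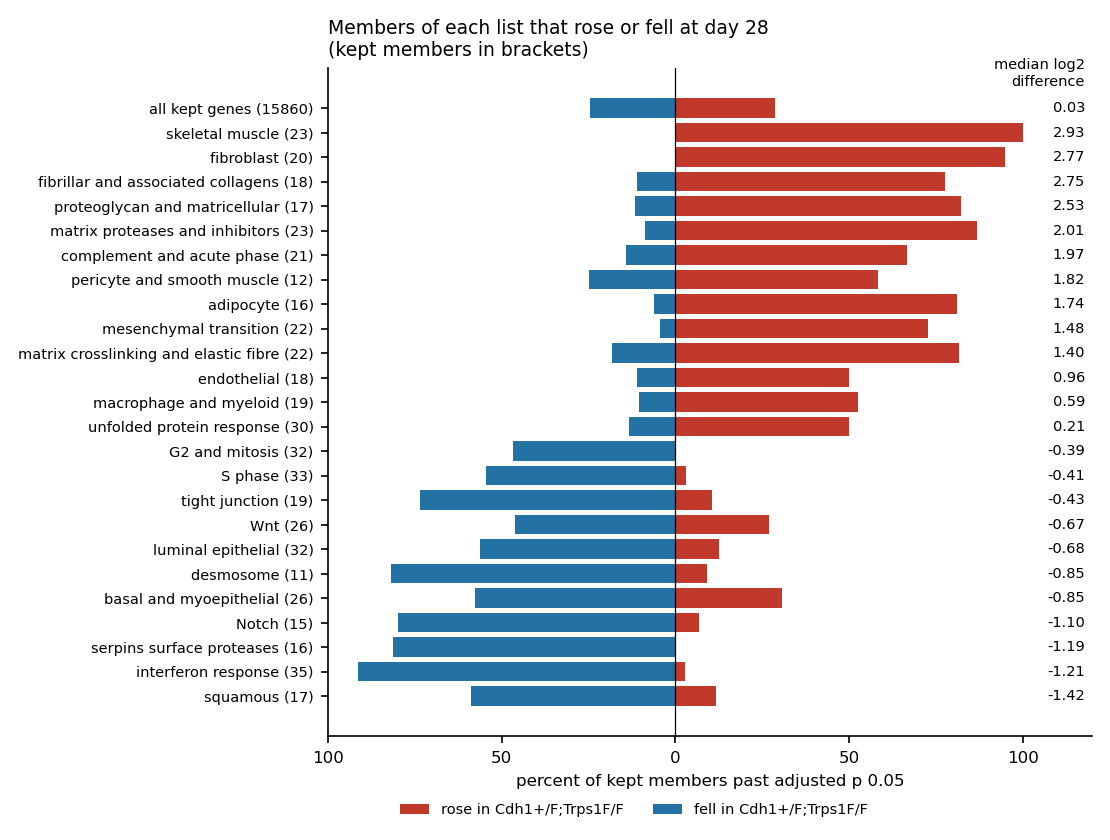
Each row is a gene list, with the percent of its kept members that rose (right, red) or fell (left, blue) in Cdh1+/F;Trps1F/F against Cdh1F/F;Trps1+/+ organoids at day 28 on the x axis and the median log2 difference at the right edge. The first row gives all 15860 kept genes, of which 28.6% rose and 24.7% fell. Stromal, muscle and matrix lists lie at the top and interferon, protease and squamous lists at the bottom.

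Among signalling lists, Notch genes fell in 12 of 15 kept members and rose in 1 (median log2 difference -1.1). Ligands Jag1 (-1.44), Jag2 (-1.6) and Dll1 (-1.1), receptors Notch1 (-0.53) and Notch3, and targets Nrarp, at 7.04 and 7.4 in Trps1-floxed and 9.89 and 9.75 in Trps1 wild-type libraries, and Hey2 (-2.15) fell, whereas the target Hes1 rose by 0.64. Wnt genes gave 26 kept members, of which 7 rose and 12 fell (median log2 difference -0.67). Wnt10a stood at 4.25 and 4.88 in Trps1-floxed and 7.72 and 7.85 in Trps1 wild-type libraries, Wnt7b fell by 1.03 on the log2 scale, the stromal ligand Wnt2 stood at 6.62 and 6.45 in Trps1-floxed and 0.74 and 1.46 in Trps1 wild-type libraries, and Axin2, the common feedback target, rose by 0.57, a call lost without Trps1-floxed replicate a or Trps1 wild-type replicate a. TGF-beta and BMP genes gave 28 kept members, of which 7 rose and 14 fell (median log2 difference -0.23). The ligand gene Bmp2 (-2.63) and the BMP targets Id1 (-2.51), Id2 (-1.02) and Id3 (-0.96) fell, and the receptor gene Tgfbr2 (2.06) and ligand gene Tgfb2 (1.63) rose. Id1 stood at 7.93 and 8.42 in Trps1-floxed and 10.63 and 10.74 in Trps1 wild-type libraries.

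EGF family genes gave 13 kept members, of which 4 rose and 6 fell (median log2 difference -0.29), with ligand genes Tgfa (-1.3) and Hbegf (-1.11) and receptor gene Erbb2 (-0.91) lower and Areg (1.05) and Egfr (0.9) higher. FGF and IGF genes gave 22 kept members, of which 10 rose and 8 fell (median log2 difference 0.27, 0.16 without Trps1 wild-type replicate a). The growth factor gene Igf1 stood at 12.42 and 12.2 in Trps1-floxed and 8.8 and 9.05 in Trps1 wild-type libraries and Igf2 at 12.8 and 12.47 in Trps1-floxed and 9.89 and 10.36 in Trps1 wild-type libraries, while the binding protein gene Igfbp5 stood at 16.57 and 16.67 in Trps1-floxed and 18.32 and 17.93 in Trps1 wild-type libraries (log2 difference -1.5, SE 0.181, limma adjusted p = 1.68e-05). Ligands were thus higher and the binding proteins Igfbp3 and Igfbp5 lower, although Igfbp6 rose by 3.61. YAP and TAZ targets gave 22 kept members, of which 4 rose and 10 fell (median log2 difference -0.13), with Ctgf at 12.32 and 12.36 in Trps1-floxed and 14.81 and 14.64 in Trps1 wild-type libraries and Ankrd1 at 10.19 and 10.17 in Trps1-floxed and 7.34 and 7.79 in Trps1 wild-type libraries, which moved in opposite directions. Deacetylases and corepressors, among them the complexes TRPS1 is known to recruit, gave 32 kept members, of which 6 rose and 11 fell (median log2 difference -0.11, -0.07 without Trps1-floxed replicate a), a called share close to the 53.3% over all kept genes. S100 and metallothionein genes gave 17 kept members, of which 2 rose and 6 fell (median log2 difference -0.01, 0.07 without Trps1-floxed replicate a and 0.03 without Trps1 wild-type replicate b).

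S phase genes fell in 18 of 33 and rose in 1 (median log2 difference -0.41). G2 and mitosis genes fell in 15 of 32 and rose in 0 (median log2 difference -0.39, -0.15 to -0.63 with 1 of the 4 libraries left out). Tk1 stood at 6.97 and 6.93 in Trps1-floxed and 8.51 and 8.34 in Trps1 wild-type libraries and the cytokinesis gene Anln at 8.58 and 8.86 in Trps1-floxed and 10.07 and 9.5 in Trps1 wild-type libraries. The proliferation marker Mki67, at 9.37 and 9.9 in Trps1-floxed and 10.09 and 9.48 in Trps1 wild-type libraries, and Top2a (log2 difference -0.23) overlapped between genotypes and did not pass, though Top2a did at -0.53 without Trps1 wild-type replicate b. Among cell cycle brakes and D cyclins, 6 of 15 rose and 2 fell (median log2 difference 0.09, 0.15 without Trps1 wild-type replicate b), with the inhibitor genes Cdkn1a (1.19) and Cdkn1c (2.4) higher. Targets of p53 gave 26 kept members, of which 10 rose and 4 fell (median log2 difference 0.22), with Eda2r (2.7) the largest rise. For the cell cycle brakes and the p53 targets, the called share in either direction was close to the 53.3% over all kept genes. Immediate early genes gave 20 kept members, of which 4 rose and 8 fell (median log2 difference -0.08, -0.02 to -0.28 with 1 of the 4 libraries left out). The shares over all kept genes were 28.6% risen and 24.7% fallen. Fos, at 14.9 and 15.07 in Trps1-floxed and 14.88 and 15.19 in Trps1 wild-type libraries, did not pass.

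Chaperones and sensors of the unfolded protein response gave 30 kept members, of which 15 rose and 4 fell (median log2 difference 0.21), with Hsp90b1 at 14.75 and 14.77 in Trps1-floxed and 13.88 and 13.82 in Trps1 wild-type libraries and Hspa5 at 14.22 and 14.37 in Trps1-floxed and 13.68 and 13.69 in Trps1 wild-type libraries. Cholesterol synthesis genes gave 24 kept members, of which 12 rose and 2 fell (median log2 difference 0.27), and Cyp51 stood at 11.6 and 11.48 in Trps1-floxed and 10.4 and 10.28 in Trps1 wild-type libraries. Both lists had small medians and more rises than falls. Fatty acid synthesis genes gave 19 kept members, of which 10 rose and 5 fell (median log2 difference 0.33), with the regulator gene Srebf1 lower (-1.34) and Acss2 higher (1.87). Glycolysis and hypoxia genes gave 24 kept members, of which 9 rose and 6 fell (median log2 difference 0.23, 0.13 without Trps1 wild-type replicate a), and the glucose transporter gene Slc2a1 stood at 11.66 and 11.82 in Trps1-floxed and 13.66 and 13.66 in Trps1 wild-type libraries (log2 difference -1.92, SE 0.113, limma adjusted p = 2.59e-08). Nuclear genes of oxidative phosphorylation gave 33 kept members, of which 14 rose and 4 fell (median log2 difference 0.2, 0.11 without Trps1 wild-type replicate a). Mitochondrially encoded genes gave 11 kept members, of which 7 rose and 0 fell (median log2 difference 0.52, 0.32 to 1.26 with 1 of the 4 libraries left out). Cytosolic ribosomal protein genes gave 30 kept members, of which 5 rose and 10 fell (median log2 difference -0.16, -0.05 without Trps1-floxed replicate b). For the nuclear oxidative phosphorylation genes and the ribosomal protein genes, the called share was close to the 53.3% over all kept genes.

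The same 2 genotypes were also harvested at day 14. A contrast of the difference at day 28 minus that at day 14 passed for 5373 of 15860 genes (33.9%). Of all 15860 kept genes, the difference was higher at day 28 for 2869 and lower for 2504. The difference in Trps1 changed by -0.24 (limma adjusted p = 0.51), with libraries at 9.5 and 9.98 in Trps1-floxed and 13.59 and 13.51 in Trps1 wild-type organoids at day 14. Clca2 was already high at day 14, with 12.18 and 11.98 in Trps1-floxed and 6.93 and 6.5 in Trps1 wild-type libraries. Its difference still changed by 2.65 (limma adjusted p = 5.25e-05). The interferon list had a median of -1.24 at day 14 and -1.21 at day 28, and the fibroblast list 2.1 at day 14 and 2.77 at day 28. Single members changed all the same. The difference was lower at day 28 in 12 and higher in 2 of 35 interferon members, and higher in 9 of 20 fibroblast members.

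Differences of further genes and lists changed between the days too. Counts of members below are those for which the log2 difference at day 28 minus that at day 14 passed the test in the direction given. Col2a1 stood at 6.24 and 6.17 in Trps1-floxed and 6.52 and 6.17 in Trps1 wild-type libraries at day 14, where the genotypes overlapped, and the change of its difference was -6.07 (limma adjusted p = 1.13e-06). At day 28 it was lower than at day 14 in Trps1-floxed and higher than at day 14 in Trps1 wild-type libraries. Skeletal muscle markers had a median of 0.61 at day 14 and 2.93 at day 28, and the difference was higher at day 28 in 22 of 23 members. The adipocyte list had a median of 0.1 at day 14 and 1.74 at day 28, and the difference was higher at day 28 in 10 of 16 members. Luminal markers had a median of 0.02 at day 14, and the difference was lower at day 28 in 19 of 32 members. Krt8 stood at 14.03 and 14.02 in Trps1-floxed and 13.67 and 13.93 in Trps1 wild-type libraries at day 14, and its difference changed by -1.53 (limma adjusted p = 1.01e-05). Unfolded protein response genes had a median of -0.82 at day 14 and 0.21 at day 28, of opposite sign. The difference was higher at day 28 in 22 of 30 members, among them Hspa5 (-1.43 at day 14 and 0.61 at day 28) and Ero1l (-1.58 at day 14 and 0.67 at day 28).

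Among genes above the median level, the change of the difference was most positive for Car6 (5.63), Coch (5.35), Fgl2 (4.87), the collagen-degrading cathepsin gene Ctsk (4.7) and Slit1 (4.58). Car6, Coch and Slit1 were far higher in the Trps1 wild-type libraries of day 14 than in the Trps1-floxed libraries of either day or the Trps1 wild-type libraries of day 28, with Coch at 9.67 and 9.91 there against 2.63 and 2.21 in the Trps1-floxed ones of that day. Ctsk stood at 13.01 and 12.97 in Trps1-floxed and 13.89 and 14.09 in Trps1 wild-type libraries at day 14 and at 13.81 and 13.5 in Trps1-floxed and 9.85 and 10.07 in Trps1 wild-type libraries at day 28. In the negative direction stood Col2a1, Mcpt2 (-5.47), Smoc1 (-3.22), Col27a1 (-2.82, with Trps1 wild-type replicates over 2 log2 units apart at day 28), B4galnt3 (-2.7) and Alpl (-2.61). Mcpt2 stood at 7.93 and 7.28 in Trps1-floxed and 6.59 and 6.28 in Trps1 wild-type libraries at day 14, the opposite order to day 28.

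**Figure D5:**
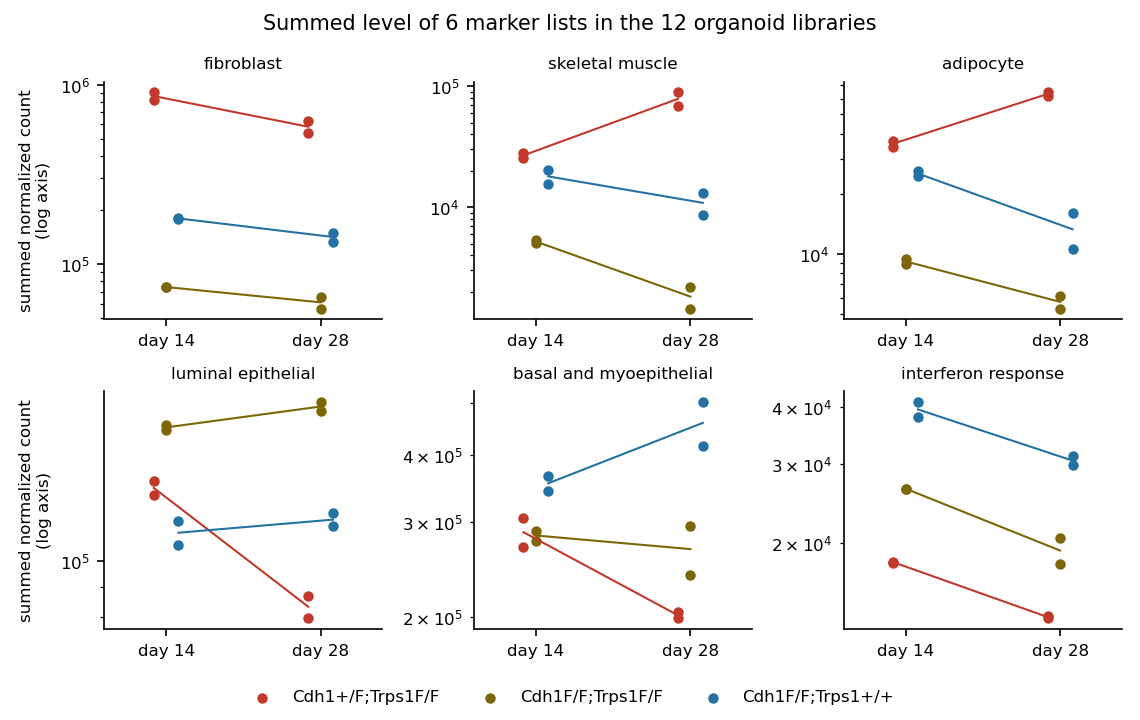
Each panel gives the summed normalized count of 1 marker list on a log y axis in the 12 organoid libraries at day 14 and day 28. Points are libraries and lines join the means of Cdh1+/F;Trps1F/F (red), Cdh1F/F;Trps1F/F (olive) and Cdh1F/F;Trps1+/+ (blue). Skeletal muscle and adipocyte sums were higher at day 28 than at day 14 in the red group and lower in the other groups, and the luminal sum was lower at day 28 in the red group.

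Day 28 Cdh1F/F;Trps1F/F organoids also carry floxed Trps1 and differ from the Trps1-floxed organoids described here by a second floxed Cdh1 allele. This direct contrast passed for 8993 genes (56.7%), more than the 8453 of the contrast with the Trps1 wild-type organoids, with which it shares the Trps1-floxed libraries. Rises made up 51.1% of its calls as deposited and 38.2% after quantile normalization. Trps1 stood at 9.45 and 10.04 in Trps1-floxed and 11.23 and 11.05 in Cdh1F/F;Trps1F/F libraries (log2 difference -1.4, limma adjusted p = 2.39e-05), and Cdh1 at 13.04 and 13.16 in Trps1-floxed and 13.81 and 13.94 in Cdh1F/F;Trps1F/F libraries (log2 difference -0.78). Both genes were lower in each Trps1-floxed library than in each Cdh1F/F;Trps1F/F library. Fibroblast markers differed in all 20 kept members (median log2 difference 4.94) and skeletal muscle markers in all 23 (median 5.12), higher in the Trps1-floxed organoids. Mfap4 differed by 9.63, Lum by 9.43 and Col1a2 by 7.7.

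The genes with the largest differences from the Trps1 wild-type organoids had varied levels in the Cdh1F/F;Trps1F/F organoids. Clca2 stood at 12.06 and 12.1 in Trps1-floxed libraries, against 13.39 and 14.11 in Cdh1F/F;Trps1F/F and 3.79 and 4.35 in Trps1 wild-type libraries. Slc28a3 stood at 3.09 and 3.65 in Trps1-floxed and 7.22 and 6.16 in Cdh1F/F;Trps1F/F libraries, and Col2a1 at 3.86 and 3.43 in Trps1-floxed and 6.27 and 5.72 in Cdh1F/F;Trps1F/F libraries. Clca2 was thus highest, and Slc28a3 and Col2a1 intermediate, with both genes floxed on both alleles. Ugt8a stood at 3.32 and 3.84 in Trps1-floxed and 9.24 and 9.66 in Cdh1F/F;Trps1F/F libraries (log2 difference -5.87, limma adjusted p = 1.96e-10). Igfbp3 stood at 8.19 and 8.11 in Trps1-floxed and 12.51 and 12.24 in Cdh1F/F;Trps1F/F libraries (log2 difference -4.22, limma adjusted p = 1.36e-10). The defensin gene Defb1 went the same way, at 1.32 and 3.02 in Trps1-floxed, 9.62 and 9.55 in Cdh1F/F;Trps1F/F and 8.5 and 8.37 in Trps1 wild-type libraries. Cell cycle lists were lower in the Trps1-floxed than in the Cdh1F/F;Trps1F/F organoids in 33 of 33 S phase and 32 of 32 G2 and mitosis genes, with Mki67 at 9.37 and 9.9 in Trps1-floxed and 12.13 and 12.02 in Cdh1F/F;Trps1F/F libraries (log2 difference -2.44).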

How the data were processed

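Libraries were made from total RNA with a TruSeq kit, per the labels' protocols. Reads were aligned with TopHat to GRCm38 and counted with HTSeq, per the submitters' processing notes (versions and strand setting not given in the sources used here). The authors deposited log2(normalized count + 1) values, scaled by 1 factor per library. Whole reads were recovered from them for depth and counting error only, which leaves out other error. Genes with a value of at least 10 normalized counts (plus 1) in 2 of 12 organoid libraries were kept. limma 3.58.1 (R 4.3.3) fitted all 6 groups together with a variance trend, and Benjamini-Hochberg adjusted p-values over all kept genes had a threshold of 0.05. The fit was tested on simulated data. Genes named are Trps1, Cdh1, the 15 with the largest rise and the 15 with the largest fall above the median level, up to 6 of each of 50 lists by p plus defining members, and 8 in each direction of the 2 other contrasts; some genes this rule names are not reported here. The members and lists were chosen with earlier results of these data known. Summed counts of a list run over all its members with a value, kept or not. Rows with no gene name (1) or with symbols turned into dates (14) were left out. Alternatives were a common median, quantile normalization, other filters, pseudocount 10, limma-voom, no variance trend, the 4 libraries alone and each library left out.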

Additional observations from a re-analysis of the deposited data

Results flagged for a closer look

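The difference between Cdh1+/F;Trps1F/F and Cdh1F/F;Trps1+/+ organoids itself differed between day 28 and day 14, by a limma test of that change at an adjusted p under 0.05 and by 2 or more on the log2 scale, for 48 of the 231 genes described. At any size, the change passed for 150 of the 231, against 33.9% of all kept genes. Genes named for the largest change between the days are among the 231. These counts and their directions are therefore partly set by how the genes were picked. The values are the log2 difference at day 28 minus that at day 14. It was higher at day 28 for 34 genes. Fat cell genes were Retn (5.72), Adipoq (4.95) and Lpl (2.49). Muscle genes were Tnnt3 (3.03) and Myh4 (2.45). Matrix, basement membrane and matrix protease genes were Ctsk (4.70), Lum (3.75), Lama2 (3.58), Lama4 (3.44), Col6a5 (3.21), Gpc3 (3.02), Mmp13 (2.96), Mfap4 (2.90), Mmp3 (2.86), Prg4 (2.76), Lamb1 (2.24) and Dcn (2.22). Chaperone and protein folding genes were Ero1l (2.25), Hsp90b1 (2.21) and Hspa5 (2.04). Complement genes were C7 (3.67) and C1ra (2.42). Transcription factor and partner genes were Zeb2 (2.43), Zfpm2 (2.23) and Zeb1 (2.20). The others were Car6 (5.63), Coch (5.35), Fgl2 (4.87), Slit1 (4.58), Igfbp6 (3.14), Eda2r (2.68), Clca2 (2.65), Csn3 (2.32) and Il33 (2.26). It was lower at day 28 for 14 genes. Cartilage and skeletal genes were Col9a1 (-2.32), Scrg1 (-2.48), Col9a2 (-2.52), Alpl (-2.61), Col27a1 (-2.82), Smoc1 (-3.22) and Col2a1 (-6.07). Prg4, also known from cartilage and listed above with the matrix genes, went the other way (2.76). The others were Timp3 (-2.06), Aqp5 (-2.13), Wnt7b (-2.14), Tmem213 (-2.21), Krt7 (-2.23), B4galnt3 (-2.70) and Mcpt2 (-5.47). Day 28 and day 14 differences had opposite signs with about 1 log2 unit or more on each day for Ctsk (3.70 at day 28, -1.0 at day 14), Lama4 (2.07 at day 28, -1.37 at day 14), Wnt7b (-1.03 at day 28, 1.11 at day 14), Mcpt2 (-4.31 at day 28, 1.17 at day 14). The causes were not tested.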

How the results depend on the processing

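The count of genes that differed at day 28, 8453, ranged from 7580 to 9074 over the alternatives that kept all 4 libraries and from 6899 to 7187 with 1 library left out. The change between the days passed for 3659 to 5145 genes with 1 library left out, and the contrast with Cdh1F/F;Trps1F/F organoids for 7492 to 8155. These counts stayed within 1.5 times their values under every alternative run. The balance of directions moved: rises made up 51.1% of calls against Cdh1F/F;Trps1F/F organoids as deposited and 38.2% after quantile normalization, which moved the median of all genes to -0.15, and the median against Trps1 wild-type organoids was -0.1 after quantile normalization and with limma-voom. The Trps1 difference ranged from -3.75 to -4.34 and the Cdh1 difference from -0.28 to -0.51, past the test under all alternatives run. Over 231 named genes, 2761 values under alternatives gave 22 lost calls, in Axin2, Cdh2, Cdh5, Coch, Csn1s1 and Wap, and 11 calls gained. H2-D1, at 0.00, passed in the negative direction after quantile normalization (-0.37). Another 32 values, in 18 genes, changed sign without passing the test on either side. List medians changed sign for ion channels of secretory epithelium (-0.41 after quantile normalization), for S100 and metallothionein genes (-0.13 to 0.07 with 1 library left out, including 0.03) and for the 1 kept sex-linked gene (-0.11 after quantile normalization). The causes were not tested. Where 1 library was left out, the lone library of its group was assumed to vary like the other groups. With pseudocount 10 the GATA list's median was 0.89. No paired analysis was possible because the 2 columns of each genotype carry the same header, with the same replicate number in both. Depth limits genes with few reads, since 3 reads are worth 2.03 to 4.51 normalized counts, and 2 libraries per genotype limit every test.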
